A study of Mus musculus with 13 samples.

Results

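The genes described here are Cpa3, Atp8b4, Igfbp4 and Slc15a1, 4 of the 19752 genes measured. Their expression was high in immature γδ thymocytes carrying the Vγ2 receptor chain (V2) and lower in CD4+ CD8+ double positive (DP) thymocytes. They were chosen by that very difference, as genes for which little is known in γδ T cells, and each was read by 1 probe set with a single gene symbol. Their V2 and DP levels are therefore given as a description, with no test, and tests were kept for the comparison of genotypes, which the choice did not use. γδ T cells leave the thymus along a path that separates from the αβ lineage before the DP stage, and V2 cells with high HSA (CD24) are at an early step of that path. Sox4 is an HMG box transcription factor, and its loss was the study's variable.

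RNA came from thymi of mice aged 2 weeks, of mixed sex by label, and was hybridised to 1 Affymetrix array per sample, 13 arrays in all. V2 cells were sorted by flow cytometry as CD4- CD8-, TCRδ+, Vγ2+ and high for HSA, and DP cells as CD4+ CD8+. By label there were 4 V2 arrays from Sox4 conditional knockout (cKO) mice, 4 V2 arrays from wild type (WT) mice, 3 DP cKO arrays and 2 DP WT arrays. Submitters used 2 spellings for V2 titles, V2imm and immV2, each given to 2 cKO and 2 WT arrays, and whether the spelling stands for a batch is unstated. Neither the Cre driver, nor the floxed allele, nor separate animals for the replicates are named in the labels, so each p-value reflects the scatter among these arrays alone, and that scatter may be technical.

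The sorted populations were checked by their defining genes. On 7 V2 arrays the γδ genes Sox13 and Etv5 lay at 9.38 to 11.16 and at 10.73 to 12.20 in log2 intensity (log2 of the deposited RMA value, so that 1 unit is a change of 2 times), against 7.83 to 8.18 for Sox13 and 6.41 to 6.64 for Etv5 on 4 DP arrays. Cd4, Cd8a and Rag1, which define the DP stage, lay between 6.67 and 8.23 on those V2 arrays and between 12.36 and 13.03 on those DP arrays. The array labelled DP cKO replicate 5 went against its label, with Cd4 at 7.47 and Etv5 at 12.01. The array labelled V2 WT replicate 5 (immV2) went against its label as well, with Cd4 at 12.65 and Etv5 at 6.60. Both are shown apart, and the results below rest on the other 11 arrays, which are 4 V2 cKO, 3 V2 WT, 2 DP cKO and 2 DP WT. Sox4 itself had 8.07, 9.60, 8.11 and 8.23 in V2 cKO and 8.71, 8.64 and 9.68 in V2 WT, a fitted difference of -0.51 (SE 0.38, limma adjusted p = 0.999). In Sox4, 3 of the V2 cKO arrays lay below every V2 WT array. The array labelled V2 cKO replicate 5 (V2imm), at 9.60, lay above both V2imm WT arrays. On that array Sox13 at 9.99 and Etv5 at 11.85 were below every V2 WT array (11.01 to 11.16 and 11.89 to 12.20). The other V2 cKO arrays were below V2 WT in both genes as well. Every adjusted p here is limma's, adjusted over all 19752 genes, and passes under 0.05. The Sox4 probe set's place relative to the deleted part is not given. The V2 genotype results are given with and without V2 cKO replicate 5 (V2imm).

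The 4 genes belong to unrelated families. Cpa3 encodes carboxypeptidase A3, a zinc protease best known from the granules of mast cells, where it trims amino acids from the C-terminal end of peptides. Atp8b4 encodes a P4-type ATPase, a class of membrane pumps (flippases) that move phospholipids from the outer to the inner leaflet and mostly work with a CDC50 partner subunit. Igfbp4 encodes a secreted binding protein that holds insulin-like growth factors away from their receptor until the protease PAPP-A cleaves it. Slc15a1 encodes PEPT1, a proton-coupled carrier for short peptides known from the brush border of the small intestine.

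The 250 bases before a RefSeq start of each gene (GRCm38.p6) are shown. They are shown because the 4 genes share their V2 and DP pattern and the study removed a SOX factor. Only for Slc15a1 is that start the outer end of the gene's RefSeq span, at 121505254. The Atp8b4 and Igfbp4 windows lie inside the spans, whose outer ends are 126500669 and 99040005. The Cpa3 window overlaps its span, which ends at 20242209. Positions and base composition below refer to the start used. Capitals mark ACAAAG or ACAATG, cores bound by SOX and other HMG box factors, and the TATA box TATAAA, each on either strand. The windows lie at chr3:20242182-20242431, minus strand, for Cpa3, chr2:126491554-126491803, minus strand, for Atp8b4, chr11:99040994-99041243, plus strand, for Igfbp4, and chr14:121505255-121505504, minus strand, for Slc15a1, each written in the gene's direction.
Cpa3: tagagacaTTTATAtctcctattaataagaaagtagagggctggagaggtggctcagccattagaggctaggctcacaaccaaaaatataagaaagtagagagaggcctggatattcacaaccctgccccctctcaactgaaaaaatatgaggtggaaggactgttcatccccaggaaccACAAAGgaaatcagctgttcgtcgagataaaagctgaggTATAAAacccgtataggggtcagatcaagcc
Atp8b4: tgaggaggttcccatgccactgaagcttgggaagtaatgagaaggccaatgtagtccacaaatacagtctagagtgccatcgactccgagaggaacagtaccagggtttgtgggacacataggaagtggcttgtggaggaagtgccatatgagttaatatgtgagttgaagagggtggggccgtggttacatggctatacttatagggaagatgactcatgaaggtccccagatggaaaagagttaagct
Igfbp4: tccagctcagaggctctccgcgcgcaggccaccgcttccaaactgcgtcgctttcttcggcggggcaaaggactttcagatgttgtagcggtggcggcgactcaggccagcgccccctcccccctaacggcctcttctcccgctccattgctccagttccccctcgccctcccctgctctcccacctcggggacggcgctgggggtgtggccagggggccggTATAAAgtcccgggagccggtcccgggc
Slc15a1: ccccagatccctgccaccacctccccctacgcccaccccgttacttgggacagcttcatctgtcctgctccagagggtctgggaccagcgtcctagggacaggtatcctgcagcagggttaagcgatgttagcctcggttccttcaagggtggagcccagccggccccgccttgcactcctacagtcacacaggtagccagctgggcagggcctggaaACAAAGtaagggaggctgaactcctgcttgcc
The motifs were chosen after these windows had been seen, so a match is a description only. ACAAAG was found in Cpa3 at position -70 and in Slc15a1 at position -32, counted from the start to the leftmost base, and in 16.5% of the 32851 RefSeq windows of the same length. ACAATG was found in none of the 4 windows and in 10.7% of all. TATAAA stood at -31 in Cpa3 and at -28 in Igfbp4, near the usual place of a TATA box, with a further match on the other strand at -242 in Cpa3, and in 12.4% of all windows. Atp8b4 held neither a SOX core nor TATAAA. The GATA core GATAA occurred in Cpa3 at -45 (22.6% of all windows), and the RUNX core TGTGGT occurred in Cpa3 at -73 on the other strand (14.0%), where it shares bases with the ACAAAG match. Each of the 4 windows held 1 or 2 E boxes (CANNTG), and 66.2% of all windows held at least 1. All motifs were searched on both strands.

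The windows also differed in composition. Igfbp4 had 69.2% G and C with 22 CG dinucleotides and Slc15a1 had 62.0% with 7, against a median of 52.4% and 6 over all windows. Cpa3 and Atp8b4 were poorer, with 44.4% and 48.0% G and C and 3 CG dinucleotides each. The 4 windows thus shared neither base composition nor a motif of those searched other than the E box.

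Cpa3 was near the top of the intensity scale in V2 cells and near its bottom in DP cells. Its log2 intensity was 12.38, 12.22, 11.91 and 12.20 in V2 cKO and 12.31, 12.15 and 12.39 in V2 WT. It was 4.77 and 4.63 in DP cKO and 5.10 and 4.83 in DP WT. The lowest V2 array was 6.80 log2 units above the highest DP array, and the V2 cKO and V2 WT values overlapped. Group means were 12.28 ± 0.13 (SD, n = 3) in V2 WT and 4.97 ± 0.19 (n = 2) in DP WT, a difference of 7.32 (159-fold as deposited). In the cKO the means were 12.18 ± 0.20 (n = 4) in V2 and 4.70 ± 0.10 (n = 2) in DP, a difference of 7.48. Both were the largest differences between V2 and DP among the 19752 genes. On the DP arrays 8.47% to 12.9% of probe sets were dimmer than Cpa3, so the fold rests on a signal near the array's lower end, and on the log2(value + 32) scale the WT difference was 6.31. In bulk RNA, fewer cells of a type and less RNA per cell cannot be told apart.

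Atp8b4 was high in V2 cells at a moderate intensity. Its values were 9.77, 10.08, 10.57 and 10.25 in V2 cKO and 9.75, 9.67 and 10.61 in V2 WT. They were 5.71 and 5.61 in DP cKO and 5.40 and 5.05 in DP WT. The lowest V2 array was 3.96 above the highest DP array, and both V2 genotypes covered the same range. V2 WT averaged 10.01 ± 0.52 and DP WT 5.22 ± 0.25, which is 4.79 apart (27.6-fold as deposited, rank 7 among all genes). The DP signal is near the array's lower end, so this size depends on how low values are treated, and on the log2(value + 32) scale it was 3.94. The cKO means of 10.17 ± 0.34 in V2 and 5.66 ± 0.07 in DP were 4.51 apart.

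Igfbp4 was bright in V2 cells and lay in the middle of the intensity range in DP cells. Its values were 10.49, 12.25, 10.86 and 11.44 in V2 cKO and 11.85, 12.00 and 11.70 in V2 WT. They were 7.09 and 6.97 in DP cKO and 7.14 and 7.18 in DP WT. On the DP arrays 49.4% to 53.7% of probe sets were dimmer than Igfbp4, so there it stood at the middle of the array, above the other 3 genes. V2 cells were sorted as CD4-, and Cd4 averaged 6.98 on their arrays. This level therefore does not settle whether DP cells express Igfbp4. The V2 WT mean of 11.85 ± 0.15 was 4.69 above the DP WT mean of 7.16 ± 0.03 (25.9-fold, rank 9), and in the cKO the difference was 4.23. Of the V2 arrays, cKO replicate 4 (V2imm) and cKO replicate 3 (immV2) were the lowest and cKO replicate 5 (V2imm) the highest, so the WT values lay inside the cKO range.

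Slc15a1 had the smallest V2 to DP difference of the 4. Its values were 9.33, 10.35, 10.02 and 8.92 in V2 cKO and 9.85, 10.01 and 10.77 in V2 WT. They were 5.97 and 6.02 in DP cKO and 5.95 and 5.53 in DP WT. Every V2 array was at least 2.90 above every DP array, and the V2 genotypes overlapped, with the lowest 2 arrays cKO and the highest WT. The WT means of 10.21 ± 0.49 in V2 and 5.74 ± 0.30 in DP were 4.47 apart (22.2-fold as deposited, rank 10), and the cKO means of 9.66 ± 0.65 in V2 and 5.99 ± 0.04 in DP were 3.66 apart. The DP arrays had 19.7% to 29.3% of probe sets below Slc15a1 and 12.8% to 22.4% below Atp8b4, and on the log2(value + 32) scale the WT difference of Slc15a1 was 3.83.

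**Figure D1:**
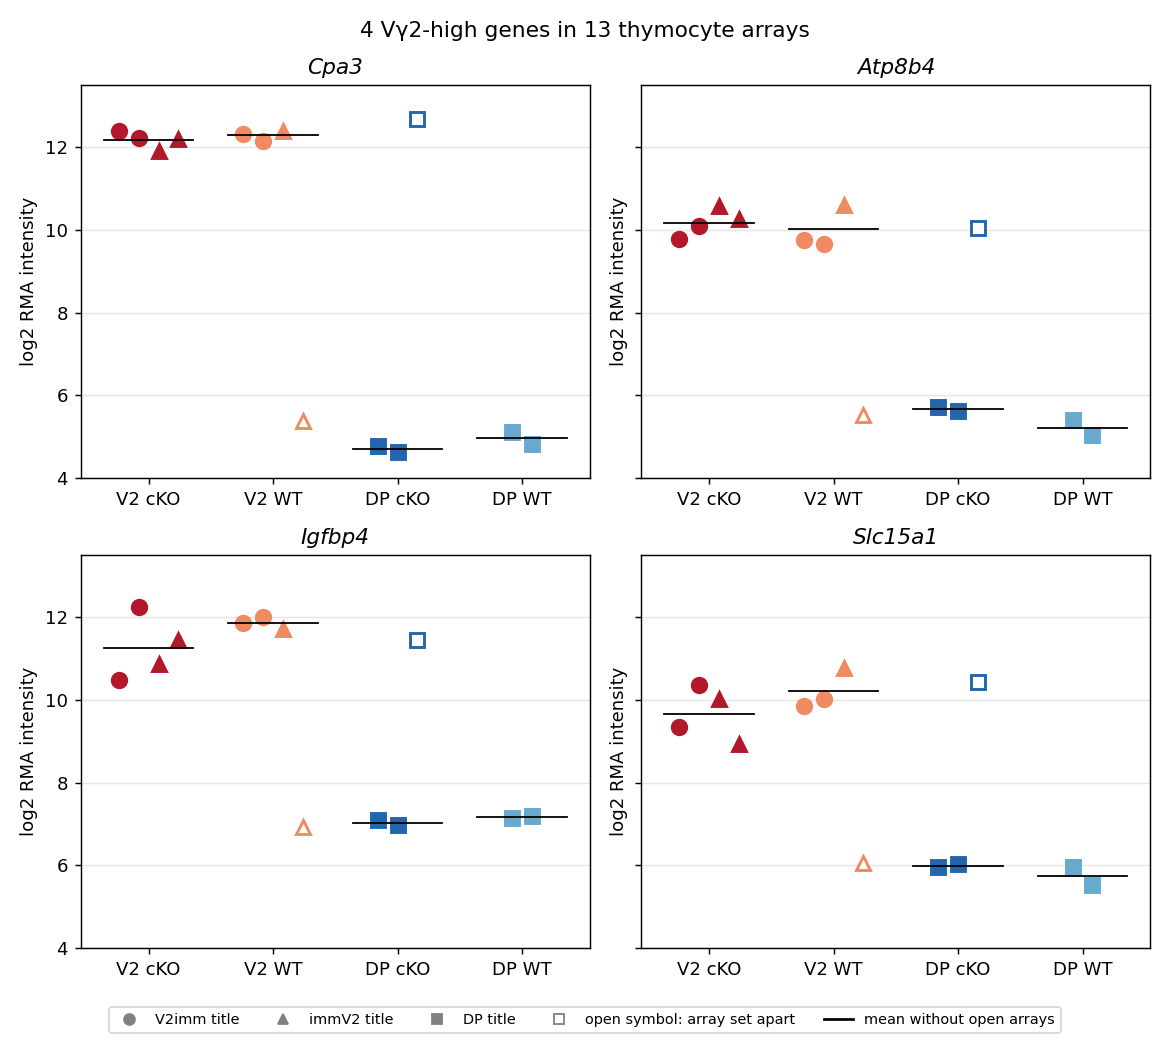
Log2 RMA intensity of Cpa3, Atp8b4, Igfbp4 and Slc15a1 on 13 arrays by labelled group, with circles for V2imm, triangles for immV2, squares for DP and open symbols for the 2 arrays set apart. Lines are group means without the open symbols. In each panel the 7 filled V2 symbols sit above the 4 filled DP symbols by at least 2.90.

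In all 4 genes the 7 V2 arrays were above the 4 DP arrays, a separation that the choice of genes fixed and that 4.79% of all genes showed. Both arrays set apart carried the pattern of the other population. The array labelled DP cKO replicate 5 had Cpa3 at 12.69, Atp8b4 at 10.03, Igfbp4 at 11.45 and Slc15a1 at 10.43. On the array labelled V2 WT replicate 5 (immV2), Cpa3 stood at 5.39, Atp8b4 at 5.53, Igfbp4 at 6.93 and Slc15a1 at 6.05. For each gene the first of these lay above the lowest V2 array, and the second lay below every V2 array kept.

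None of the 4 genes passed the test between genotypes in V2 cells, a test that called 0% of the 19752 genes (757 had an unadjusted p under 0.05). Cpa3 differed by -0.09 (SE 0.17) and Atp8b4 by 0.05 (SE 0.17) in cKO minus WT, with limma adjusted p = 0.999 for each. Their 95% intervals, -0.45 to 0.27 and -0.31 to 0.41, leave out a change of 1 log2 unit in either direction. Igfbp4 differed by -0.56 (SE 0.32, 95% interval -1.25 to 0.13) and Slc15a1 by -0.57 (SE 0.32, 95% interval -1.26 to 0.12), with limma adjusted p = 0.999 for each. The intervals of these 2 genes are wider and hold both 0 and a difference of -1. The same fit was made without the array labelled V2 cKO replicate 5 (V2imm), whose Sox4 lay above both V2imm WT arrays. Igfbp4 then differed by -0.997 (SE 0.22, limma adjusted p = 0.0961) and Slc15a1 by -0.95 (SE 0.26, limma adjusted p = 0.159). Cpa3 then differed by -0.092 and Atp8b4 by -0.069, so none of the 4 passed, while 44 of all genes did. Without V2 cKO replicate 4 (V2imm), in contrast, Igfbp4 differed by -0.115. The γδ marker list was also lower in V2 cKO, with a summed linear intensity of 12026 to 21825 against 23670 to 25393 in V2 WT. Of its 12 measured genes 0 passed. The lowest sum and the lowest Igfbp4 value were both in V2 cKO replicate 4 (V2imm). V2 cKO replicate 5 (V2imm), with a sum of 21236, had the highest Igfbp4 value. V2 cKO replicate 4 (immV2), with 21825, had the lowest Slc15a1 value. The part of the γδ list in the values of Igfbp4 and Slc15a1 was not tested.

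The genotype difference was also taken within each way of writing the V2 titles. In the V2imm arrays, with 2 cKO and 2 WT, Igfbp4 differed by -0.56 (SE 0.43) and Slc15a1 by -0.09 (SE 0.37). In the immV2 arrays, with 2 cKO and 1 WT, Igfbp4 differed by -0.55 (SE 0.53) and Slc15a1 by -1.30 (SE 0.45, limma adjusted p = 1). These errors assume that the single WT array varies like the other groups, and it has the highest Slc15a1 value of all V2 arrays. The 2 Slc15a1 differences were themselves -1.21 apart (SE 0.58), which did not pass in limma (adjusted p = 1). For Cpa3 the V2imm arrays gave 0.07 (SE 0.22) and the immV2 arrays -0.34 (SE 0.27). For Atp8b4 the V2imm arrays gave 0.21 (SE 0.22) and the immV2 arrays -0.19 (SE 0.26), so the estimates of both genes differed in sign between the sets, within their errors.

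In DP cells the 4 genes again did not pass, where the test called 0.0253% of genes. Sox4 itself was at 8.74 and 8.68 in DP cKO, between the DP WT values of 9.37 and 8.55. Its fitted difference was -0.25 (SE 0.49) and did not pass, so this probe set did not separate the DP genotypes. Atp8b4 was 0.44 higher in DP cKO than in DP WT (SE 0.21, 95% interval -0.03 to 0.90) and Cpa3 differed by -0.27 (SE 0.22, 95% interval -0.74 to 0.20), each with limma adjusted p = 1. Igfbp4 differed by -0.13 (SE 0.41) and Slc15a1 by 0.25 (SE 0.41). The cKO and WT values did not overlap for any of the 4 genes, 2 of them higher and 2 lower in the cKO, but 29.8% of all genes are separated this way with 2 arrays against 2. The difference between V2 and DP in the genotype effect was -0.83 (SE 0.52) for Slc15a1, -0.43 (SE 0.52) for Igfbp4, -0.39 (SE 0.27) for Atp8b4 and 0.18 (SE 0.27) for Cpa3. No gene of the 19752 passed limma's test of that difference (0%), and 372 had an unadjusted p under 0.05.

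**Figure D2:**
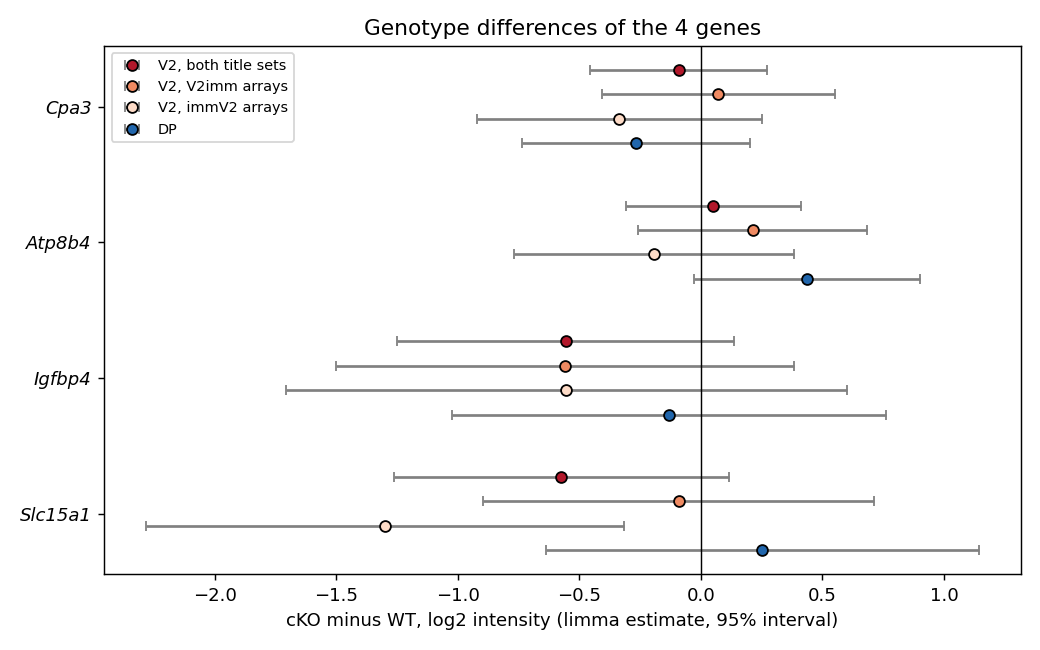
Genotype difference (cKO minus WT, log2 intensity) of the 4 genes from limma, with 95% intervals as bars, for V2 arrays of both title sets, V2imm arrays, immV2 arrays and DP arrays. Every interval includes 0 except that of Slc15a1 in the immV2 arrays, where the bar assumes that the single WT array varies like the other groups and the test did not pass after adjustment over all genes.

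Among the V2 arrays the 4 genes spread differently. Cpa3 was the steadiest, with an SD of 0.17 over the 7 V2 arrays, against 0.39 for Atp8b4, 0.61 for Slc15a1 and 0.64 for Igfbp4. The lowest Igfbp4 value, a deviation of -1.03 from its V2 mean, came from V2 cKO replicate 4 (V2imm), where Slc15a1 deviated by -0.56 and Cpa3 by 0.16. That array had the lowest upper quartile of intensity, 332.7 against up to 426.2 elsewhere, and the part of this in the values was not tested. The lowest Slc15a1 value, a deviation of -0.97, came from V2 cKO replicate 4 (immV2), where Igfbp4 deviated by -0.07. Over the 7 V2 arrays, which hold both genotypes and both title sets and so differ in these as well, the highest correlation of a pair was that of Igfbp4 with Slc15a1 (Pearson's r = 0.47), followed by Atp8b4 with Slc15a1 (0.34). Cpa3 had r of -0.30 with Atp8b4, 0.11 with Igfbp4 and 0.04 with Slc15a1.

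**Figure D3:**
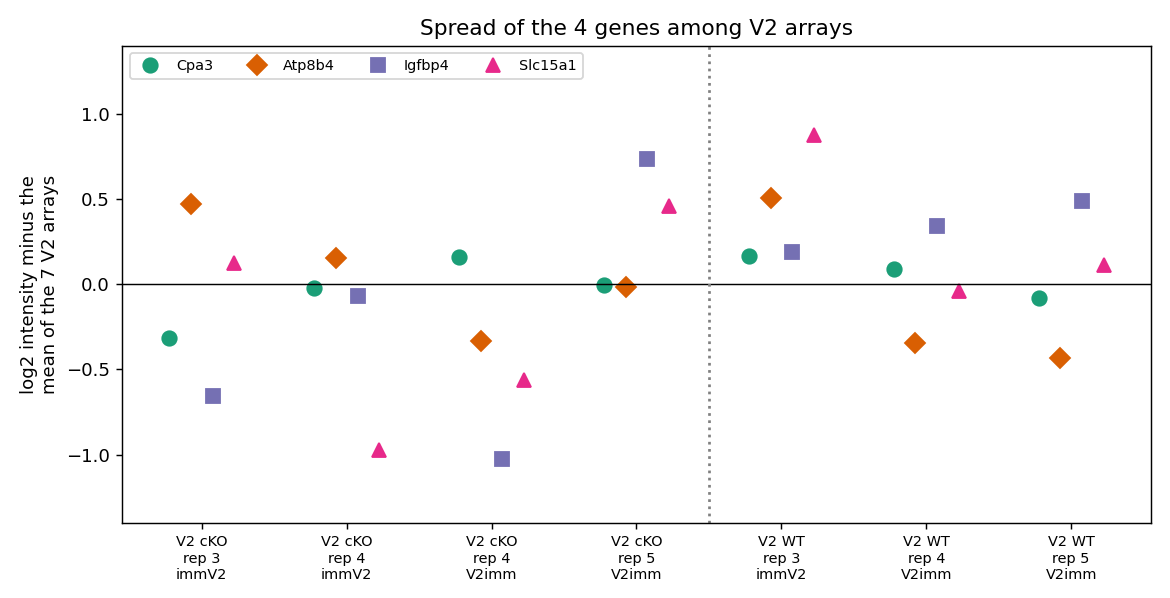
Deviation of each gene from its mean over the 7 V2 arrays (log2 intensity, y axis), with V2 cKO arrays left and V2 WT arrays right of the dotted line. Cpa3 stays within 0.32 of its mean, while Igfbp4 runs from -1.03 to 0.74 and Slc15a1 from -0.97 to 0.87.

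Atp8b4 was higher on each immV2 array than on each V2imm array. The 3 immV2 arrays had 10.57, 10.25 and 10.61, and the 4 V2imm arrays 9.77, 10.08, 9.75 and 9.67, so the sets did not overlap, as was so for 14.9% of all genes. The fitted difference, immV2 minus V2imm, was 0.65 (SE 0.17, 95% interval 0.29 to 1.01) and did not pass (limma adjusted p = 0.0617), while the same term called 2.5% of all genes. Without the array labelled V2 cKO replicate 5 (V2imm) it passed (limma adjusted p = 0.00917). The other 3 genes differed by -0.08 for Cpa3, -0.22 for Igfbp4 and 0.11 for Slc15a1, and none passed. The macrophage and dendritic cell list had a summed linear intensity of 1004 to 1390 in the immV2 arrays and 1689 to 5823 in the V2imm arrays, and its part in Atp8b4's values was not tested.

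None of the other listed carboxypeptidases came near the Cpa3 difference, for which Cpa3 had been chosen and they had not. Of 14 measured, 2 rose in V2 WT over DP WT, where 3.2% of all genes rose and 1.67% fell. Differences given with an SE are fitted with the title set as a covariate, so they can depart from the difference of the printed means. Cpq, a plasma and lysosomal enzyme named carboxypeptidase Q, averaged 8.10 in V2 WT and 6.59 in DP WT, with a fitted difference of 1.49 (SE 0.29, limma adjusted p = 0.00676). Cpd, which trims peptides in the secretory pathway, averaged 6.81 in V2 WT and 5.98 in DP WT, with a fitted difference of 0.72 (SE 0.19, limma adjusted p = 0.0493). The pancreatic forms Cpa1 and Cpb1 differed by -0.03 and -0.13 and did not pass. The median difference of the listed carboxypeptidases, not all of them close relatives of Cpa3, was -0.00, beside -0.02 over all genes.

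Among 16 measured flippase genes, Atp8a1 and Atp10d rose and Atp10a fell, where 3.2% of all genes rose and 1.67% fell. Atp8a1, a phosphatidylserine flippase, averaged 9.92 in V2 WT and 8.82 in DP WT (fitted difference 1.16, SE 0.21, limma adjusted p = 0.00494). Atp10d had a fitted difference of 1.03 (SE 0.23, limma adjusted p = 0.0215). Atp10a, a phosphatidylcholine flippase, went the other way, at 8.18 in V2 WT and 10.55 in DP WT (fitted difference -2.26, SE 0.22, limma adjusted p = 2.7e-05). Flippase genes of V2 and DP cells thus differed in both directions. Tmem30a, the common CDC50 partner of these pumps, averaged 9.95 in V2 WT and 10.11 in DP WT and did not pass. The family's median was -0.06.

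Around Igfbp4, 19 genes of the insulin-like growth factor system were measured, with a median of -0.08. Of these, 1 rose in V2 WT over DP WT and none fell, beside 3.2% and 1.67% of all genes. The 1 gene was Stc1, whose product inhibits PAPP-A, at 6.49 in V2 WT and 6.05 in DP WT (fitted difference 0.64, SE 0.15, limma adjusted p = 0.0265). Its values overlapped, at 5.87 to 7.35 on V2 arrays and 6.03 to 6.15 on DP arrays. Pappa, the protease that cleaves IGFBP4, averaged 6.16 in V2 WT and 6.21 in DP WT, and the ligand Igf1 averaged 6.61 in V2 WT and 6.44 in DP WT, neither passing. The receptor gene Igf1r averaged 9.35 in V2 WT and 8.18 in DP WT, with a fitted difference of 1.15 that did not pass (SE 0.40, limma adjusted p = 0.152). The other binding proteins, Igfbp1 to Igfbp7 without Igfbp4, had differences from -0.32 to 0.07 and none passed.

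Around Slc15a1, 8 genes of peptide carriage and muropeptide sensing were measured, with a median of 0.04. Of these, 1 rose and none fell, beside 3.2% and 1.67% of all genes. The 1 gene was Slc46a3, a lysosomal carrier, at 8.44 in V2 WT and 6.99 in DP WT (fitted difference 1.47, SE 0.18, limma adjusted p = 0.000259). The closest relatives, Slc15a2, Slc15a3 and Slc15a4, differed by 0.30, 0.01 and -0.08 and did not pass, nor did Nod1 (0.74) and Nod2 (0.03), the sensors of bacterial cell wall peptides. Between genotypes, 0 genes of these 4 lists passed in V2 cells and 0 passed in DP cells, with medians in V2 of 0.14, 0.08, -0.02 and 0.03 for the carboxypeptidases, flippases, growth factor genes and peptide carriers, beside 0.01 over all genes.

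**Figure D4:**
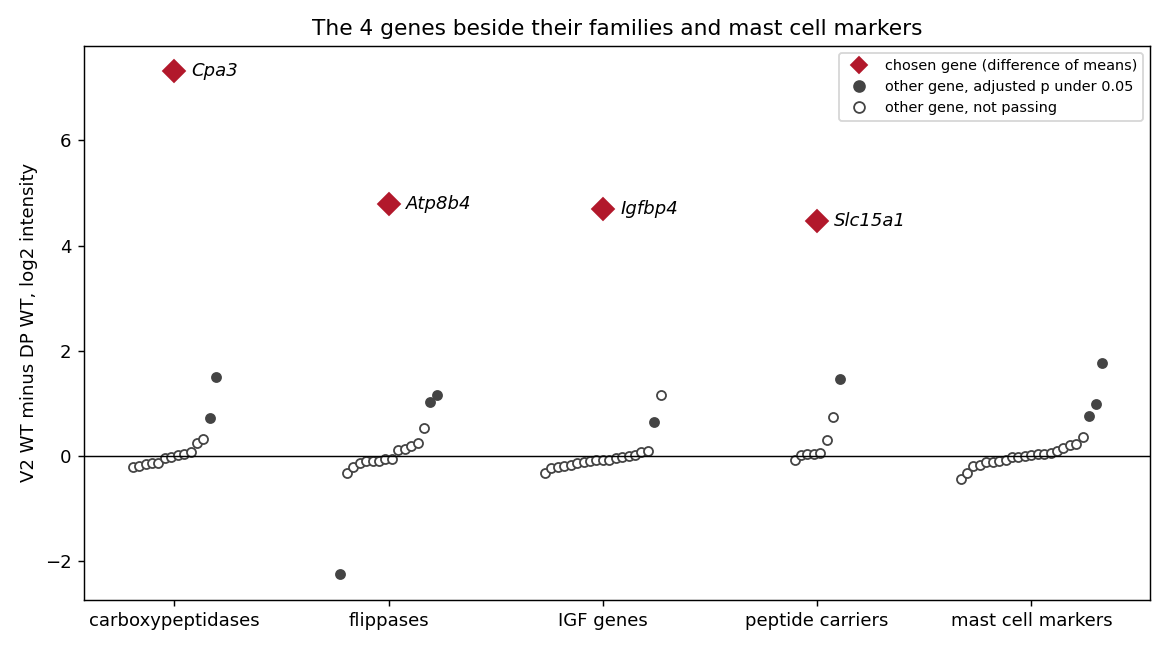
V2 WT minus DP WT difference in log2 intensity of the 4 genes (red diamonds, difference of means), of the genes listed around them and of mast cell markers (circles, fitted difference). Filled circles passed limma's test over all genes. The 4 genes, chosen for this difference, lie between 4.47 and 7.32, and no other gene shown exceeds 1.77.

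Because Cpa3 is a mast cell gene, mast cell markers were read on the same arrays. Of 23 measured, 3 rose in V2 WT over DP WT and none fell, beside 3.2% and 1.67% of all genes. The median was 0.02. Kit, the stem cell factor receptor of mast cells and early progenitors, rose by 1.77 (SE 0.34, limma adjusted p = 0.00661), Fcer1g by 0.99 (SE 0.19, adjusted p = 0.00778) and Srgn by 0.76 (SE 0.17, adjusted p = 0.0231). Fcer1g and Srgn are also expressed by other blood cells. The markers named next were picked as defining ones that lay at DP level, so that level is fixed by the choice. Kit, which rose, is not among them. Fcer1a, the IgE-binding chain, lay at 4.40 to 4.87 on V2 arrays and 4.33 to 4.73 on DP arrays, and Ms4a2, its partner chain, at 4.35 to 4.90 on V2 arrays and 4.52 to 4.54 on DP arrays. The granule proteases were likewise level, Cma1 at 5.08 to 5.78 on V2 and 5.28 to 5.44 on DP arrays, Mcpt4 at 4.51 to 5.15 on V2 and 4.58 to 4.81 on DP arrays, and Tpsb2 at 6.28 to 6.85 on V2 and 6.42 to 6.57 on DP arrays. The list's summed linear intensity was 10342 to 13698 in V2 cKO, 11170 to 13793 in V2 WT, 7706 to 8773 in DP cKO and 7593 to 7605 in DP WT, and Srgn was its brightest gene.

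Marker lists of other cells were read in the same way. Over all genes, 3.2% rose in V2 WT over DP WT and 1.67% fell. Of 16 early T progenitor genes 2 rose in V2 WT over DP WT, Kit and Cd44 (1.34, SE 0.18, limma adjusted p = 0.000475), and Cd44 is named after its value was seen. Of 12 innate lymphoid genes 6 rose and none fell, and those that rose include Zbtb16, which is also on the γδ list. None of 14 granulocyte and monocyte, 14 macrophage and dendritic cell or 7 B cell genes passed. The summed intensity of the macrophage and dendritic cell list nevertheless reached higher on some V2 arrays. It was 1053 to 5823 in V2 cKO, 1004 to 3141 in V2 WT, 1122 to 1228 in DP cKO and 1076 to 1089 in DP WT. Of 16 stromal, epithelial and endothelial genes 1 rose, Pdgfrb (2.60, SE 0.35, limma adjusted p = 0.000509), and that list's summed intensity was 2768 to 3687 in V2 cKO, 3407 to 3659 in V2 WT, 2388 to 2550 in DP cKO and 2391 to 2439 in DP WT. Of the lists for the sorted populations themselves, 8 of 12 γδ genes rose and 10 of 11 DP genes fell. The part of other cells in the values of the 4 genes was not tested. With all 13 arrays as labelled, none of the 12 family and marker genes named here with an adjusted p under 0.05 passed, and Cpd missed the threshold in 10 of 19 alternatives, Srgn in 8 of 20 and Stc1 in 6 of 19.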

How the data were processed

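The deposited values are linear probe set intensities, made by the authors with RMA and Affymetrix Power Tools (no version) according to the submitters' processing notes. No genome build is given in the sources used here. They ran from 6.16 to 23800, with array medians of 122.2 to 137.2. RMA usually sets arrays to a common distribution, but upper quartiles of the deposited values ran from 332.7 to 426.2, so the arrays still differed, and precision is limited by how many arrays there are. Of 24922 deposited probe sets, 21425 had 1 symbol in the platform annotation, and for 921 genes with several the one with the highest mean was used.

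The log2 of the deposited intensities was fitted with limma 3.58.1 in R 4.3.3 (lmFit, eBayes with an intensity trend), over 11 arrays, with 4 group means and a title set covariate. Tests were two-sided and adjusted by Benjamini-Hochberg over 19752 genes, with 0.05 as threshold. For the 4 genes, V2 and DP are compared by differences of group means, and for all other genes by the fitted coefficient. The script was tested on simulated data. In the V2imm titles "KO" is written without a gene and was read as the Sox4 cKO. Genes named besides the 4 were the up to 4 family genes with the smallest p among those that passed. Relatives with a stated role and the 3 genes most correlated with each of the 4 were also named. Of the markers, the brightest in V2 WT and defining ones at the level of DP arrays were named. The members and lists were chosen with earlier results of these data known. Promoter windows were taken from RefSeq for all 4 genes, and no genome or protein sequence was used. Alternatives were other scalings, filters, moderation, the replicate block, title sets and left-out arrays. Figures used matplotlib 3.10.9 under Python 3.11.15.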

Additional observations from a re-analysis of the deposited data

Results flagged for a closer look

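Both arrays that went against their labels stand out in the 4 genes. Among the 4 arrays labelled V2 WT, replicate 5 (immV2) lay far below the others in Cpa3, at 5.39, and in Igfbp4, at 6.93. The threshold for this mark is one that about 1 in 20 groups passes by chance, but the array was set apart by its markers and the genes were chosen for their V2 and DP levels, so it is no test. The array labelled DP cKO replicate 5, which entered no comparison other than those made with all 13 arrays, had Cpa3 at 12.69, Atp8b4 at 10.03, Igfbp4 at 11.45 and Slc15a1 at 10.43, all above the other 4 DP arrays. Atp8b4 was higher in both V2imm cKO arrays than in both V2imm WT arrays and lower in both immV2 cKO arrays than in the single immV2 WT array. The difference between these genotype effects, immV2 minus V2imm, was -0.41 (SE 0.34) and did not pass in limma (adjusted p = 1).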

How the results depend on the processing

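No alternative brought Cpa3, Atp8b4, Igfbp4 or Slc15a1 past the threshold between genotypes, in V2 or in DP. With all 13 arrays as labelled, the V2 differences became 1.62 for Cpa3, 0.64 for Igfbp4 and 0.48 for Slc15a1, and the DP differences 2.40 for Cpa3 and 1.34 for Igfbp4, since each of the 2 arrays then counts in the other population. The mean V2 WT minus DP WT differences became 5.59, 3.67, 3.46 and 3.43 for Cpa3, Atp8b4, Igfbp4 and Slc15a1, and 6.31, 3.94, 4.41 and 3.83 on the log2(value + 32) scale, which compresses low values by construction. With an array left out, that of Cpa3 was 7.18 to 7.45. Leaving out each array moved the V2 differences between -0.17 and 0.072 for Cpa3, -0.069 and 0.21 for Atp8b4, -0.997 and -0.115 for Igfbp4, and -0.95 and -0.09 for Slc15a1. Igfbp4 depended on V2 cKO replicate 4 (V2imm), without which it was -0.12. It also depended on the array labelled V2 cKO replicate 5 (V2imm), without which it was -0.997 (limma adjusted p = 0.0961). That array had Sox4 above both V2imm WT arrays. Slc15a1 was -0.09 without V2 WT replicate 3 (immV2). The sign of Atp8b4 turned without V2 WT replicate 5 (V2imm), at -0.011, without V2 cKO replicate 5 (V2imm), at -0.069, and in immV2 arrays only, at -0.19. That of Cpa3 turned to 0.072 in V2imm arrays only and without V2 WT replicate 3 (immV2). In DP the range over left-out arrays was -0.40 to -0.13 for Cpa3, 0.26 to 0.61 for Atp8b4, -0.19 to -0.07 for Igfbp4 and 0.04 to 0.47 for Slc15a1. Sox4 ranged from -1.06 to 0.16 in V2 and from -0.66 to 0.16 in DP with an array left out. It turned to 0.16 in V2 in V2imm arrays only and without V2 WT replicate 3 (immV2), and to 0.16 in DP without DP WT replicate 3. Atp8b4's title set difference was -0.58 with 13 arrays, and it passed on the log2(value + 32) scale, without the intensity trend, with the filter on dim probe sets, and without V2 cKO replicate 5 (V2imm), with limma adjusted p of 0.0490, 0.0487, 0.0490 and 0.00917. Counts over all genes were less stable. In V2 cKO against V2 WT, 0 genes passed, but 34 did with the replicate block, 11 after quantile normalisation, 9 with the filter, 5 in V2imm arrays only, 9 in immV2 arrays only, and 0 to 44 with an array left out (44 without V2 cKO replicate 5, V2imm). In DP, 5 passed, against 0 with 13 arrays, 3 without the title set covariate, 8 with the replicate block, 9 after quantile normalisation, 0 with only the DP arrays fitted and 0 to 14 with an array left out (0 without DP WT replicate 5, 14 without V2 cKO replicate 4 or 5, V2imm). The difference between V2 and DP had 0, against 4 with the block, 1 after quantile normalisation and 0 to 4 with an array left out. V2 WT against DP WT had 962, against 11 with 13 arrays, 594 without the covariate and 477 to 1575 with an array left out (477 without DP WT replicate 3, 1575 without V2 cKO replicate 4, V2imm). The causes were not tested. Replicate numbers were not taken as pairs, since same-numbered arrays correlated by -0.11 to 0.52 and 4 of 8 arrays correlated best with their own number. With the replicate block the V2 differences were -0.11, 0.13, -0.65 and -0.31 for Cpa3, Atp8b4, Igfbp4 and Slc15a1. Of 12 named family and marker genes none turned sign, 0 passed with 13 arrays, and Cpd, Srgn and Stc1 also failed in several others. The title set fits and the named family genes were added after seeing the data.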

Other observations

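The genes most like each of the 4 over all 13 arrays were themselves higher in V2 than in DP, since the arrays fall into those 2 clusters. For Cpa3 they were Trgv1 (r = 0.995) and Trdv2-2 (0.992), V segments of the γδ receptor, and Clec12a (0.994). For Atp8b4 they were Gimap4 (0.995), Nkg7 (0.992) and Plac8 (0.988), and for Igfbp4 Etv5 (0.991), P2rx7 (0.990) and Tox2 (0.989). For Slc15a1 they were Tox2 (0.986), Trdv2-2 (0.986) and the granzyme gene Gzma (0.985). The 4 genes therefore had different nearest genes, with Tox2 and Trdv2-2 each found for 2 of them.

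Within the 7 V2 arrays the nearest genes were others, and none of those over 13 arrays came back. They were Klf7 (0.969), Cep70 (0.961) and Pfn2 (0.959) for Cpa3, and Abca1 (0.989), Pdia6 (0.981) and Snord82 (0.976) for Atp8b4. Igfbp4 went with Celf1 (0.992), Rptor (0.991) and Phf20 (0.984), and Slc15a1 with Gm16386 (0.966), Zfp94 (0.955) and Pogk (0.940). Celf1, the nearest to Igfbp4, averaged 10.26 in both V2 and DP arrays, so it did not share the Igfbp4 difference between the populations. These are the highest of 19752 correlations over few arrays, which differ in genotype and title set.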
